A study of Mus musculus with 4 samples.

Results

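Transcripts of 10 genes, 8 inhibitory receptors of myeloid cells and the SHP phosphatases that act below them, were compared between mouse myeloid cells with and without a conditional deletion of Pdcd1, the gene for PD-1. The genes were given by name, by a rule that uses no measured value but that was set with earlier results of these data known, and each was found once among the 24706 genes of every library. The receptors were Sirpa, Pirb, Lilrb4a, Cd300a, Clec12a, Siglece, Ceacam1 and Cd33, and the phosphatases were Ptpn6, which encodes SHP-1, and Ptpn11, which encodes SHP-2. All 10 had a mean of at least 1 FPKM and were among the 10779 genes tested. FPKM is a read number divided by gene length and by library depth, so that levels can be compared between genes.

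The 4 RNA-seq libraries carry the labels wt and cko, with 2 libraries each. The cko mice carry LoxP sites on both sides of an exon of Pdcd1 together with LysM-Cre, which drives Cre recombinase from the lysozyme M gene (Lyz2) in myeloid cells. The study names the controls PD-1f/f in its figures, which would carry the floxed gene without Cre, and wild-type in its methods, and the labels do not settle this. The cells are described once as CD11b+ cells sorted from the liver at postnatal day 3 and once as whole livers at postnatal day 2, and the strain, the sex and any pooling of animals are not given in the sources used here. Nothing says that the libraries of a group came from separate animals, so that the p-values measure the spread between these libraries, which may be technical.

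Inhibitory receptors of this class typically carry a short tyrosine motif in their cytoplasmic tail, the immunoreceptor tyrosine-based inhibitory motif (ITIM). Kinases of the Src family phosphorylate it, and the phosphorylated motif recruits SHP-1 and SHP-2, tyrosine phosphatases that remove phosphate from nearby activating receptors and adaptors. PD-1 itself carries such a motif and recruits mainly SHP-2. Neutrophils, monocytes and macrophages carry many of these receptors, whose ligands include CD47, MHC class I molecules, sialic acid and exposed membrane lipids. The tails of the receptors compared here were not examined.

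Pdcd1 was present in all libraries, at 28.5 and 34.7 FPKM in wt and at 17.1 and 21.4 FPKM in cko. Its level was lower in both cko libraries, with a log2 fold change of -0.69 (SE 0.19, limma on log2(FPKM + 1), unadjusted p = 0.0114, adjusted p = 0.218). FPKM of the whole gene does not show which exons were read. Lyz2, the locus of LysM-Cre, was at 31306 and 32147 FPKM in wt and at 10422 and 8127 FPKM in cko. The libraries held 17691496 to 22212407 reads, and the 10 most abundant genes took 46.6% and 42.33% of all FPKM in wt and 33.1% and 29.41% in cko. Itgam, which encodes CD11b, lay between 48.5 and 54.3 FPKM and Ptprc (CD45) between 58.1 and 75.1 FPKM. Genes of other cells were present too, since erythroid markers summed to 3714 and 2334 FPKM in wt and 1416 and 1515 FPKM in cko, with 6 of 9 tested markers lower in cko at an unadjusted p under 0.05. The library cko replicate 2 stood apart from its partner in several genes, among them Csf1r at 113 FPKM against 33.0 to 45.6 FPKM elsewhere.

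Among the members, Sirpa, Pirb, Lilrb4a and Ptpn11 were higher in cko and Clec12a was lower, each at an unadjusted p under 0.05, whereas Cd300a, Siglece, Ceacam1, Cd33 and Ptpn6 did not pass that level. None of the 10 passed the threshold of the study's methods, a |log2FC| of at least 1 with an adjusted p under 0.05, and neither did any other gene, so that 0.0% of the genes tested were called. With voom on recovered reads, 2 of 13327 genes passed and 0 of them were members. At the study's second threshold, a |log2FC| above 1 with an unadjusted p under 0.01, 2.29% of all genes but 0 members were called. At an unadjusted p under 0.05, 4 of 10 members were higher, against 11.4% of all genes, and 1 of 10 was lower, against 4.95%. The split of all genes moved with the scaling, from 1234 higher and 534 lower to 822 and 855 with median-of-ratios scaling and to 2353 and 199 with a common FPKM total, in which 3 and 5 members were higher and 1 lower. Both cko libraries lay above both wt libraries for 5 of 10 members, against 33.6% of all genes, and below them for 1 of 10, against 18.0%. With 10 genes these shares are coarse. The median log2 fold change was 0.27 over the members and 0.09 over all genes tested. Over the 8 receptors it was 0.26, and 0.14 under median-of-ratios scaling, where that of all genes was -0.01. With 2 libraries against 2, an exact two-sided permutation test cannot go below p = 0.333, the value it gave for each member whose groups did not overlap.

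**Figure D1:**
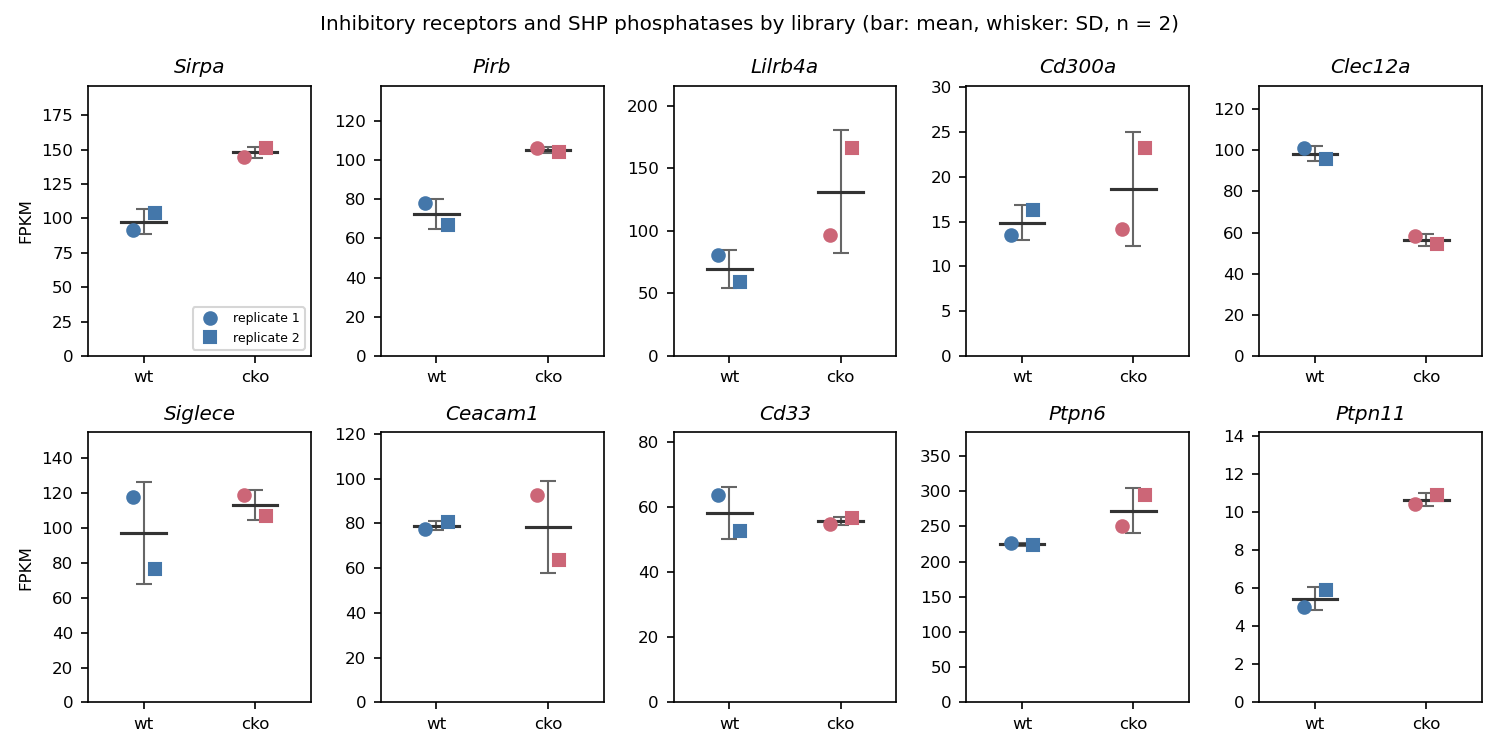
FPKM of the 10 members (vertical axis, linear from 0, a scale of its own in each panel) in the 2 wt and 2 cko libraries; points are libraries, the horizontal bar is the mean and the whisker the SD. Both cko points lie above both wt points for Sirpa, Pirb, Lilrb4a, Ptpn6 and Ptpn11, and below them for Clec12a.

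Sirpa encodes SIRPα, the receptor for CD47, through which a cell that shows CD47 holds back phagocytosis. The gene lies at chr2:129592835-129632228 on the plus strand (GRCm38). Its level was 91.3 and 104 FPKM in wt and 145 and 151 FPKM in cko, from 9620 to 13323 reads a library. The lower cko library was thus above the higher wt library, and the replicates of cko lay closer together than the groups. The means were 97.7 ± 9.03 FPKM in wt and 148 ± 4.67 FPKM in cko (SD, n = 2). The log2 fold change was 0.60 (SE 0.14, 95% interval 0.25 to 0.95) with an unadjusted p of 0.00641 and an adjusted p of 0.213 in limma. Without wt replicate 1 it was 0.50 and its unadjusted p in limma was 0.0614. In no other gene of GENCODE M21 was any 50-base stretch of the Sirpa transcripts found, so that no such stretch of it is ambiguous.

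Cd47, which encodes the ligand, was at 179 and 172 FPKM in wt and at 200 and 215 FPKM in cko. Its groups did not overlap either, but its log2 fold change of 0.24 (SE 0.13) had an unadjusted p of 0.122 in limma. The ratio of Sirpa to Cd47 FPKM was 0.511 and 0.604 in wt and 0.724 and 0.704 in cko. Among the related SIRP genes, which lie on chromosome 3, Sirpb1c, an activating relative without an ITIM, was at 1.09 and 1.54 FPKM in wt and at 2.48 and 5.88 FPKM in cko (log2 fold change 1.09, unadjusted p = 0.0272 in limma). Sirpb1a was at 0.924 and 0.673 FPKM in wt and 1.21 and 2.84 FPKM in cko, and Sirpb1b overlapped between the groups. Both Sirpb1a and Sirpb1c were highest in cko replicate 2, unlike Sirpa, which was nearly equal in both cko libraries.

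Pirb encodes the paired immunoglobulin-like receptor B, which binds MHC class I and is the mouse counterpart of the human LILRB receptors. The gene lies at chr7:3711409-3720391 on the minus strand. It was at 77.9 and 67.0 FPKM in wt and at 106 and 104 FPKM in cko, from 5639 to 8864 reads. Every cko value lay above every wt value, and the cko replicates differed by less than the wt replicates. The means were 72.4 ± 7.69 and 105 ± 0.957 FPKM (SD, n = 2), and the log2 fold change was 0.53 (SE 0.14, 95% interval 0.18 to 0.89). Its unadjusted p was 0.0114 and its adjusted p 0.218 in limma. Without wt replicate 2 the fold change was 0.43 and the unadjusted p in limma 0.0973.

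The level of Pirb is uncertain because 34.0% of the 50-base stretches of its transcripts were also found in other genes, chiefly Gm14548, Pira2 and Lilra6. How reads matching several genes were counted is not given in the sources used here. Pira2, an activating partner without an ITIM, was at 7.67 and 4.59 FPKM in wt and 7.17 and 10.4 FPKM in cko, and Lilra6 was at 17.0 and 13.7 FPKM in wt and 16.1 and 24.5 FPKM in cko. Both overlapped between the groups. The groups of Gm14548, looked at after the values were seen, did not overlap. It was at 18.8 and 19.3 FPKM in wt and at 22.1 and 30.8 FPKM in cko. Its log2 fold change was 0.43 (SE 0.20, unadjusted p = 0.0724 in limma). Pirb exceeded the sum of Pira2 and Lilra6 by a ratio of 3.16 and 3.66 in wt and 4.55 and 2.99 in cko, so that this ratio overlapped as well.

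Lilrb4a encodes gp49B, an inhibitory receptor of mast cells, neutrophils and macrophages. It lies at chr10:51490956-51496611 on the plus strand. Its level was 80.6 and 59.1 FPKM in wt and 96.5 and 166 FPKM in cko, from 5810 to 15343 reads. The groups did not overlap, but cko replicate 1 was closer to wt replicate 1 than to cko replicate 2. The means were 69.8 ± 15.2 and 131 ± 49.1 FPKM (SD, n = 2), and the log2 fold change of 0.87 (SE 0.30, 95% interval 0.13 to 1.61) was close to that of Ptpn11. The unadjusted p was 0.0291 and the adjusted p 0.261 in limma. This value rested on cko replicate 2, since without it the fold change was 0.48 (unadjusted p = 0.105 in limma). Without wt replicate 2 it was 0.64, with an unadjusted p of 0.156 in limma, and with median-of-ratios scaling it was 0.75, with an unadjusted p of 0.05.

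Of the 50-base stretches of Lilrb4a transcripts, 46.7% were also found in 2 other genes, Gm49339 and Lilr4b, so that its level is uncertain too. Lilr4b, the neighbouring gp49A gene, which was looked at after the values were seen, was at 204 and 150 FPKM in wt and at 252 and 451 FPKM in cko. The ratio of Lilrb4a to Lilr4b was 0.395 and 0.392 in wt and 0.383 and 0.368 in cko, so that the values of both were high and low in the same libraries. As Lilr4b holds some of the shared stretches, this ratio is uncertain too, and the part of shared reads in it was not tested. Other genes highest in cko replicate 2 were the monocyte and macrophage markers Csf1r (40.9 and 33.0 FPKM in wt, 45.6 and 113 FPKM in cko) and Marco (44.0 and 24.3 FPKM in wt, 30.8 and 94.0 FPKM in cko). The summed FPKM of 11 monocyte markers was 580 and 551 in wt and 583 and 742 in cko, with 3 of 11 higher and 0 lower at an unadjusted p under 0.05, and that of 12 macrophage markers was 393 and 267 in wt and 270 and 453 in cko, with 1 of 10 tested higher. The part of these cells in the Lilrb4a difference was not tested. In bulk RNA, a change in the number of cells of a type and a change in RNA per cell cannot be told apart.

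Clec12a encodes an inhibitory C-type lectin of granulocytes and monocytes that senses dead cells and uric acid crystals. The gene lies at chr6:129342691-129365303 on the plus strand. It was at 101 and 95.8 FPKM in wt and at 58.3 and 54.4 FPKM in cko, from 12411 and 9970 reads against 6043 and 5321 reads. Both cko libraries were well below both wt libraries, and the replicates of either group lay close together. The means were 98.4 ± 3.72 and 56.4 ± 2.77 FPKM (SD, n = 2), a ratio of 0.573. The log2 fold change was -0.79 (SE 0.14, 95% interval -1.13 to -0.46), with an unadjusted p of 0.00139 and an adjusted p of 0.183 in limma. Its unadjusted p was under 0.05 in 14 of 14 processing alternatives, in which the fold change ran from -0.91 to -0.58.

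Neutrophil markers moved in both directions. The FPKM sum of 17 neutrophil markers was 162491 and 138366 in wt and 112396 and 93378 in cko, led by S100a9 and S100a8. Of these markers 6 were lower and 5 higher at an unadjusted p under 0.05, among them Ly6g at 245 and 351 FPKM in wt against 200 and 143 FPKM in cko, and Prtn3, a gene of early granulocytes, at 267 and 250 against 538 and 450 FPKM. Their median log2 fold change was -0.18, and 0.03 with a common FPKM total and 0.10 with quantile normalization. The part of such cells in the Clec12a difference was not tested. Relative to Itgam, Clec12a was at 1.97 and 1.76 in wt and at 1.20 and 1.10 in cko.

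The ratio of Sirpa to Clec12a FPKM, formed after the values were seen and free of any scaling between libraries, was 0.903 and 1.09 in wt and 2.48 and 2.78 in cko. In wt the transcripts were thus about equally abundant, and in cko those of Sirpa exceeded those of Clec12a. Clec12a made up 16.2% and 17.4% of the summed FPKM of the 8 receptors in wt and 8.5% and 7.49% in cko, and Sirpa 14.6% and 18.9% in wt and 21.1% and 20.8% in cko.

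**Figure D2:**
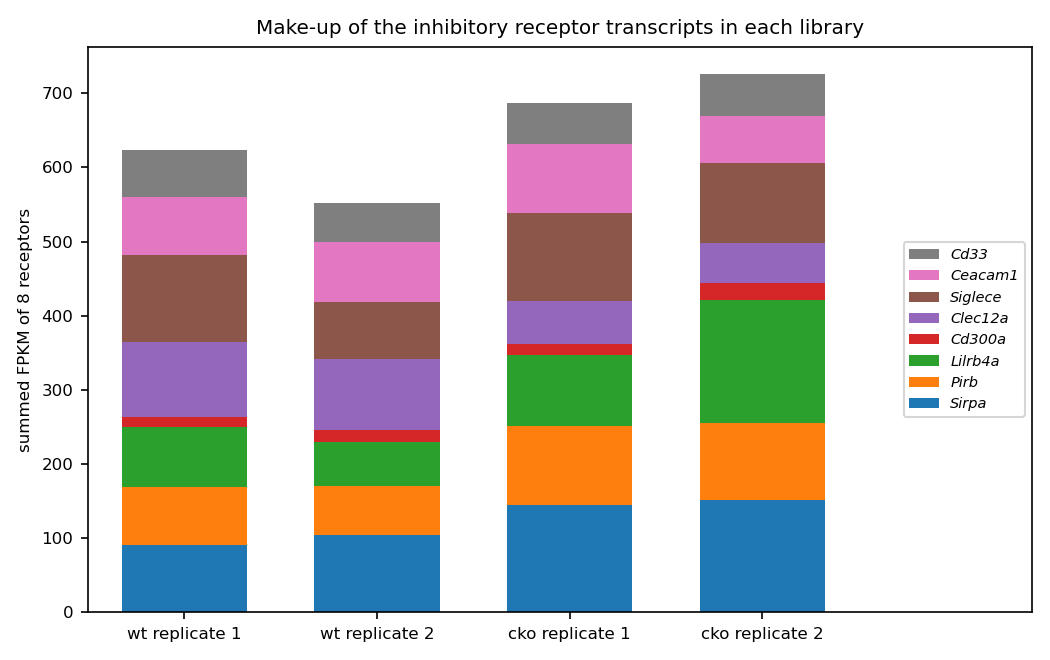
Summed FPKM of the 8 inhibitory receptors (vertical axis, linear from 0) in each library, with 1 colour per receptor. The sum was 624 and 552 FPKM in wt and 686 and 727 FPKM in cko, and the Clec12a part is thinner and the Sirpa part thicker in both cko libraries.

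Siglece, Cd33, Ceacam1 and Cd300a showed no difference larger than the spread of their replicates. Siglece and Cd33 encode receptors for sialic acid, the sugar at the tips of many glycans of the body's own cells. Siglece (chr7:43651070-43660161, minus strand) was at 118 and 76.5 FPKM in wt and at 119 and 107 FPKM in cko, so that 1 wt library lay within the cko range and the other well below. Its log2 fold change was 0.24 with a 95% interval of -0.33 to 0.82 (adjusted p = 0.621 in limma). Without wt replicate 2 it was -0.07. Cd33 (chr7:43524216-43544428, minus strand) was at 63.8 and 52.6 FPKM in wt and at 54.8 and 56.7 FPKM in cko, both cko values lying between the wt values. Its log2 fold change was -0.06 with an interval of -0.44 to 0.33, which turned to 0.16 when all libraries were given the same FPKM total.

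Ceacam1 encodes a cell adhesion molecule that binds itself on other cells. The gene (chr7:25461707-25477603, minus strand) was at 77.5 and 80.6 FPKM in wt and at 92.8 and 63.8 FPKM in cko, so that the cko libraries lay on either side of wt. The log2 fold change was -0.04 with a 95% interval of -0.55 to 0.48, and turned to 0.17 with a common FPKM total. Its transcripts share 30.4% of their 50-base stretches with other genes, chiefly Ceacam2, which was at most 0.789 FPKM in any library. Cd300a, a receptor for phosphatidylserine and phosphatidylethanolamine, lies at chr11:114890041-114904654 on the plus strand. It was the least abundant receptor, at 13.5 and 16.3 FPKM in wt and 14.2 and 23.2 FPKM in cko. Its log2 fold change was 0.27 with a 95% interval of -0.37 to 0.92, and without cko replicate 2 it was -0.06.

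Of the listed relatives of Cd300a that were tested, Cd300lb and Cd300e were lower in cko. Cd300c2 (log2 fold change -0.08) and Cd300ld (0.19) overlapped between the groups. Cd300lb, an activating receptor that pairs with the ITAM adaptor DAP12, was at 82.0 and 93.3 FPKM in wt and at 57.6 and 45.2 FPKM in cko (log2 fold change -0.77, SE 0.17, unadjusted p = 0.00553 in limma). Cd300e, another activating receptor, was at 2.54 and 3.56 FPKM in wt and at 0.971 and 0.731 FPKM in cko (log2 fold change -1.12, SE 0.25, unadjusted p = 0.00486 in limma). The groups did not overlap for either gene. The ratio of Cd300a to Cd300lb was 0.165 and 0.175 in wt and 0.247 and 0.514 in cko.

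The phosphatases differed from each other in level. Ptpn6, whose product SHP-1 is the main SHP phosphatase of blood cells, was the most abundant member in every library. The gene lies at chr6:124720707-124738714 on the minus strand. Its level was 226 and 223 FPKM in wt and 250 and 295 FPKM in cko. Both cko libraries lay above both wt libraries, but 1 of them only a little. The means were 224 ± 1.81 and 273 ± 31.8 FPKM (SD, n = 2), and the log2 fold change was 0.28 (SE 0.15, 95% interval -0.09 to 0.64), with an unadjusted p of 0.111 in limma. Without cko replicate 1 the unadjusted p was 0.0458 and with a common FPKM total it was 0.0267.

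Ptpn11, whose product SHP-2 acts below PD-1 and also transmits growth factor signals towards RAS and ERK, was the least abundant member. The gene lies at chr5:121130533-121191397 on the minus strand. It was at 5.02 and 5.88 FPKM in wt, from 835 and 829 reads, and at 10.4 and 10.9 FPKM in cko, from 1460 and 1442 reads. The 95% counting intervals reached at most 6.29 FPKM in wt and did not go below 9.87 FPKM in cko, so that the groups were apart beyond counting error, which is all these intervals cover. The means were 5.45 ± 0.609 and 10.6 ± 0.341 FPKM (SD, n = 2), a ratio of 1.95. The log2 fold change was 0.85 (SE 0.17, 95% interval 0.44 to 1.27), with an unadjusted p of 0.00268 and an adjusted p of 0.199 in limma. As log2(FPKM + 1) understates the change of low genes, voom on recovered reads gave 0.97. The unadjusted p was under 0.05 in 14 of 14 alternatives.

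Ptpn6 exceeded Ptpn11 by a ratio of 45.0 and 38.0 in wt and of 24.1 and 27.1 in cko. The ratio, formed after the values were seen, was lower in both cko libraries. The summed receptors over Ptpn6 were at 2.76 and 2.47 in wt and 2.74 and 2.46 in cko, which overlapped between the groups. Over Ptprc they were at 10.1 and 9.5 in wt and 11.3 and 9.67 in cko, which overlapped too. Over Itgam they were at 12.1 and 10.2 in wt and 14.1 and 14.7 in cko, higher in both cko libraries.

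In wt the order of mean levels was Ptpn6 (224 FPKM), Clec12a (98.4), Sirpa (97.7), Siglece (97.2), Ceacam1 (79.1), Pirb (72.4), Lilrb4a (69.8), Cd33 (58.2), Cd300a (14.9) and Ptpn11 (5.45 FPKM). The neighbours from Clec12a down to Cd33 had overlapping replicates, whereas Ptpn6, Cd300a and Ptpn11 stood apart from their neighbours. In cko the order was Ptpn6 (273 FPKM), Sirpa (148), Lilrb4a (131), Siglece (113), Pirb (105), Ceacam1 (78.3), Clec12a (56.4), Cd33 (55.7), Cd300a (18.7) and Ptpn11 (10.6 FPKM). There the replicates of Sirpa, Lilrb4a and Siglece overlapped from one to the next, as did those of Clec12a and Cd33. Clec12a was the second member in wt and the seventh in cko.

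**Figure D3:**
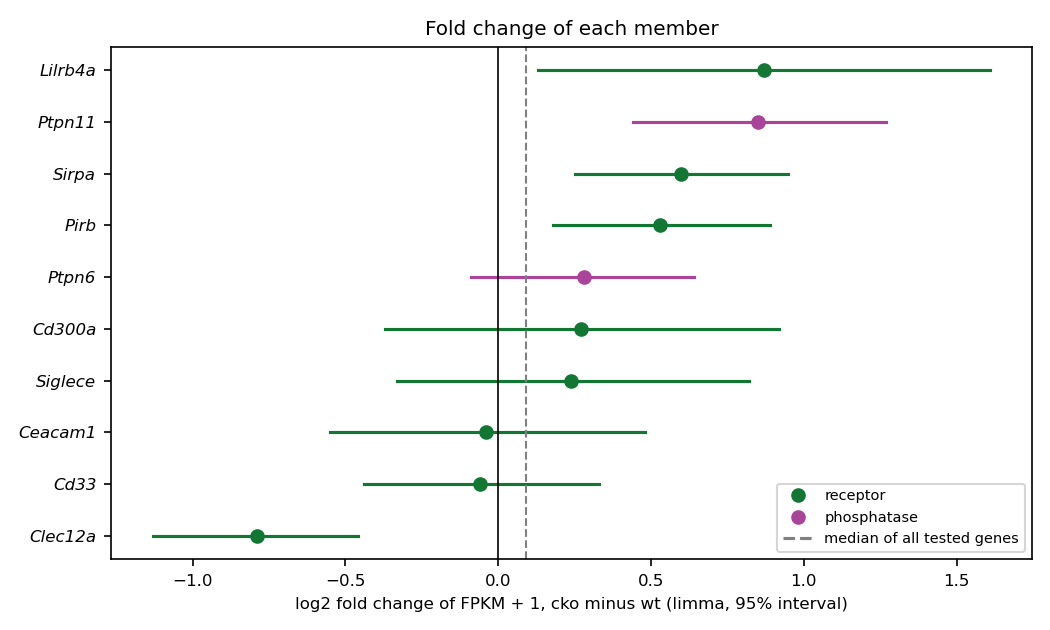
Log2 fold change of each member, cko minus wt (horizontal axis, limma on log2(FPKM + 1)), with its 95% interval; green marks receptors, purple phosphatases, and the dashed line the median of all tested genes at 0.09. The intervals of Lilrb4a, Ptpn11, Sirpa and Pirb lie above 0 and that of Clec12a below 0.

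Sequence around the RefSeq start site was available for 8 of the 10 members, in windows of 250 bases before to 50 bases after the start (RefSeq, GRCm38.p6), and not for Sirpa and Lilrb4a. The RefSeq starts of Clec12a and Cd33 lie inside the genes as GENCODE M21 places them. The letters GAGGAA or their complement TTCCTC are a form of the site bound by ETS factors such as PU.1 of myeloid cells. They were found in 7 of the 8 windows, all but that of Ptpn6, and in 28.3% of all 32851 windows. Other forms of the site were not searched for, so that a window without these letters may still hold such a site. A match of letters is not evidence of binding. The upstream 200 bases of Pirb and Ptpn11, both higher in cko, are shown 5′ to 3′ on the gene's strand with GAGGAA or TTCCTC in capitals because they differ much in base composition. They lie at chr7:3720383-3720582 and chr5:121191398-121191597, both on the minus strand, and the last 9 bases of the Pirb stretch are in an exon of GENCODE M21.
Pirb: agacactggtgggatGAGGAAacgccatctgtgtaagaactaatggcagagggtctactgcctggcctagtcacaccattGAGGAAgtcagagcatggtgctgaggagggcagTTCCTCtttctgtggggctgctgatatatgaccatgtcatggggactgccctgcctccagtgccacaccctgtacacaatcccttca
Ptpn11: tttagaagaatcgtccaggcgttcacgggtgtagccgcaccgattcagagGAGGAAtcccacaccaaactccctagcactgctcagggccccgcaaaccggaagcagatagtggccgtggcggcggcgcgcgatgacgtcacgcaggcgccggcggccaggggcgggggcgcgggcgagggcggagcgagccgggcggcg

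The stretch of Pirb held the motif 3 times and a single CpG, with 54.0% G and C, and that of Ptpn11 held it 1 time and 27 CpG, with 70.0% G and C. In the whole windows, CpG numbered 37 in Ptpn11, 8 in Ptpn6 and 1 to 4 in the 6 receptors, against a median of 7.0 over all windows. The GC box GGGCGG or CCGCCC, found in 35.7% of all windows, occurred 4 times in Ptpn11 and 5 times in Ptpn6. Clec12a, the member lower in cko, held GAGGAA or TTCCTC 2 times, but its 200 upstream bases all lie in an exon of Clec12a in GENCODE M21.

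The genes that act beside the members were looked at by lists. Of 22 tested kinases and adaptors of ITIM signalling, 8 were higher in cko at an unadjusted p under 0.05 and 0 were lower, with a median log2 fold change of 0.29. For this and the lists below, the shares over all genes were 11.4% higher and 4.95% lower, and moved with the scaling. Under median-of-ratios scaling the median of this list was 0.18, while that of all genes was -0.01, and with a common FPKM total the medians were 0.50 and 0.27. Gab2, a docking protein that binds SHP-2, was at 2.94 and 2.67 FPKM in wt and at 5.93 and 6.80 FPKM in cko (log2 fold change 0.95, SE 0.18, adjusted p = 0.199 in limma). As with Ptpn11, both cko libraries of Gab2 were well above both wt libraries. Fyb, an adaptor of integrin activation, had a log2 fold change of 0.70 and Cbl, a ubiquitin ligase of activated receptors, of 0.66, with adjusted p-values of 0.214 and 0.228 in limma.

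Of 13 other protein tyrosine phosphatases, 2 were higher and 0 lower at that level. Their median log2 fold change was 0.17, and it was 0.08 without cko replicate 2 and 0.32 without cko replicate 1. With voom, which tested another set of 15 genes of this list, the median was -0.05. Ptpn1, which encodes PTP1B, was at 29.4 and 31.9 FPKM in wt and at 55.4 and 72.3 FPKM in cko (log2 fold change 1.02, adjusted p = 0.183 in limma). Ptpn12, which encodes PTP-PEST, was at 8.58 and 11.6 FPKM in wt and at 17.3 and 20.8 FPKM in cko. Of 14 other receptors with an ITIM or a related motif, 1 was higher and 2 were lower, with a median of 0.11 that was -0.02 with quantile normalization and 0.26 without cko replicate 1. Clec4a2, an inhibitory C-type lectin like Clec12a, was at 161 and 124 FPKM in wt and at 80.4 and 76.0 FPKM in cko (log2 fold change -0.85, SE 0.17, adjusted p = 0.199 in limma). The other lower gene was Pdcd1 itself, and the higher one was Cd244, whose tail carries related switch motifs, at 1.99 and 2.41 FPKM in wt and 3.63 and 4.17 FPKM in cko. Lair1, a receptor for collagen, was at 5.85 and 5.69 FPKM in wt and at 6.90 and 9.15 FPKM in cko, with an unadjusted p of 0.0839 in limma.

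Of 12 tested ligand genes of the members, 2 were higher and 0 lower, with a median of 0.47 that was 0.24 without cko replicate 2 and 0.74 without cko replicate 1. Both, St3gal4 (12.6 and 15.0 FPKM in wt, 20.6 and 26.4 FPKM in cko) and St3gal1 (2.37 and 1.74 FPKM in wt, 3.53 and 4.99 FPKM in cko), encode sialyltransferases that add the sugar read by Siglec-E and CD33. H2-K1, an MHC class I gene and so a possible ligand of PirB, was at 34.4 and 32.0 FPKM in wt and 39.3 and 75.4 FPKM in cko, with an unadjusted p of 0.0668 in limma. Of 16 activating receptors and ITAM adaptors, the counterpart of the ITIM side, 2 were higher and 2 lower, with a median of 0.22 that was -0.03 without cko replicate 2 and 0.36 without cko replicate 1. Clec4e, which encodes Mincle, was at 18.5 and 13.7 FPKM in wt and at 37.0 and 117 FPKM in cko, and Syk, the kinase below ITAM receptors, was at 15.3 and 17.3 FPKM in wt and 21.2 and 25.0 FPKM in cko. The lower genes were Cd300lb and Trem3, the latter at 130 and 121 FPKM in wt and 91.7 and 86.7 FPKM in cko. Of the 10 tested relatives of the members, 1 was higher and 2 were lower, with a median of 0.28 that was -0.14 without cko replicate 2 and 0.58 without cko replicate 1.

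Of 5 tested genes of a list of other inhibitory checkpoints, 1 was higher and 1 lower. Cd200r1, the receptor for CD200, was at 44.8 and 41.8 FPKM in wt and at 23.2 and 18.6 FPKM in cko (log2 fold change -1.02, SE 0.17, adjusted p = 0.183 in limma). Cd274, which encodes the PD-1 ligand PD-L1, was at 3.29 and 0.293 FPKM in wt and at 4.18 and 22.9 FPKM in cko. The replicates of either group thus lay far apart, with wt replicate 2 lowest and cko replicate 2 highest.

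**Figure D4:**
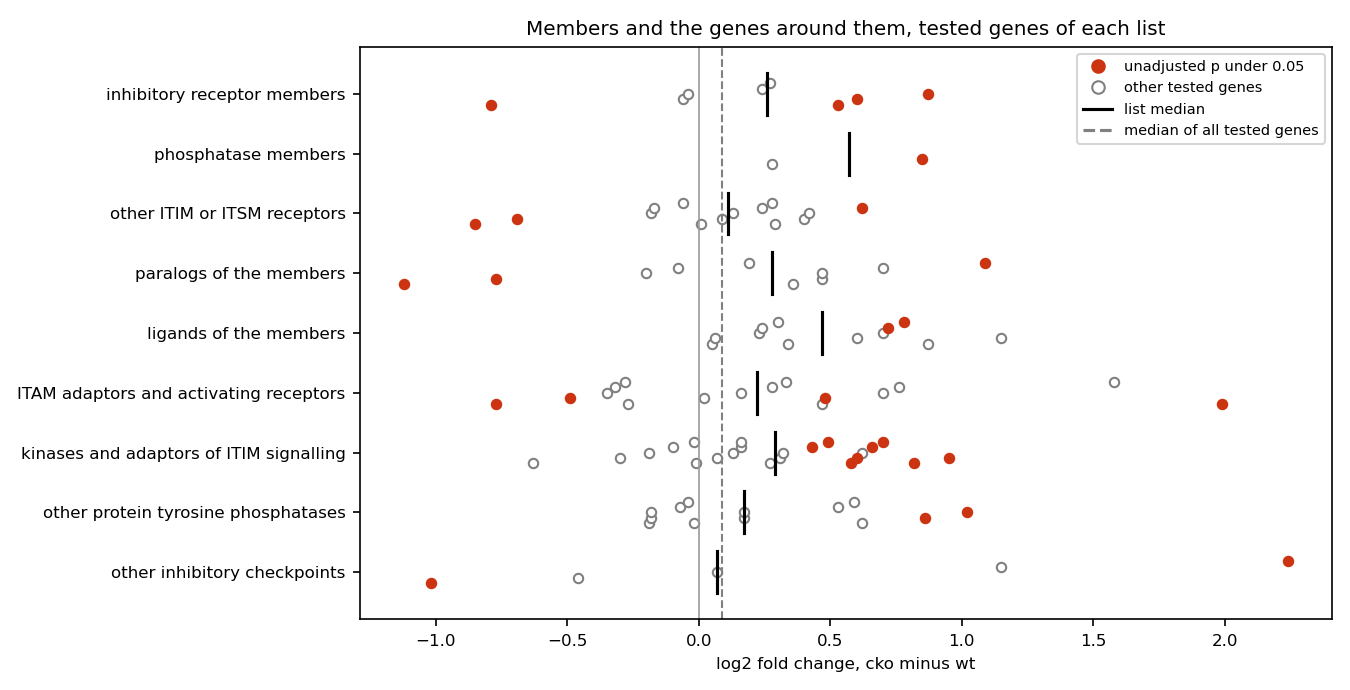
Log2 fold change, cko minus wt (horizontal axis), of every tested gene of the members and of 7 lists around them; red points have an unadjusted p under 0.05 in limma, black bars are list medians and the dashed line is the median of all tested genes. In the list of kinases and adaptors all 8 red points lie to the right, and the only red point to the left among the 8 receptors of the first row is Clec12a. Over all tested genes, 11.4% were higher and 4.95% lower at that level.

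Most markers of the remaining cell types did not pass the test. At an unadjusted p under 0.05, 3 of 9 tested markers of eosinophils, basophils and mast cells, 3 of 7 of lymphocytes and 2 of 8 of hepatocytes were lower and 0 of each were higher. Their summed FPKM was 328 and 162, 74.1 and 85.8, and 88.3 and 151 in wt, and 129 and 152, 59.6 and 58.6, and 64.4 and 75.6 in cko. Endothelial and stromal markers had 1 higher and 1 lower of 7, and 0 of 2 dendritic cell and 0 of 2 megakaryocyte markers passed. No marker was at 0 in all libraries. The part of these cells in the members' differences was not tested.

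The members differed in how far their values held when the processing was changed. In 14 alternatives, with another filter, scaling, variance prior, replicate block or count model or with a library left out, Sirpa ran from 0.47 to 0.81, Pirb from 0.42 to 0.75, Lilrb4a from 0.48 to 1.25, Clec12a from -0.91 to -0.58 and Ptpn11 from 0.74 to 1.04 on the log2 scale. The unadjusted p was under 0.05 in 13 of 14 for Sirpa and Pirb and in 11 of 14 for Lilrb4a. Ptpn6 kept its direction too, from 0.11 to 0.49, but passed that level in 3 of 14.

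**Figure D5:**
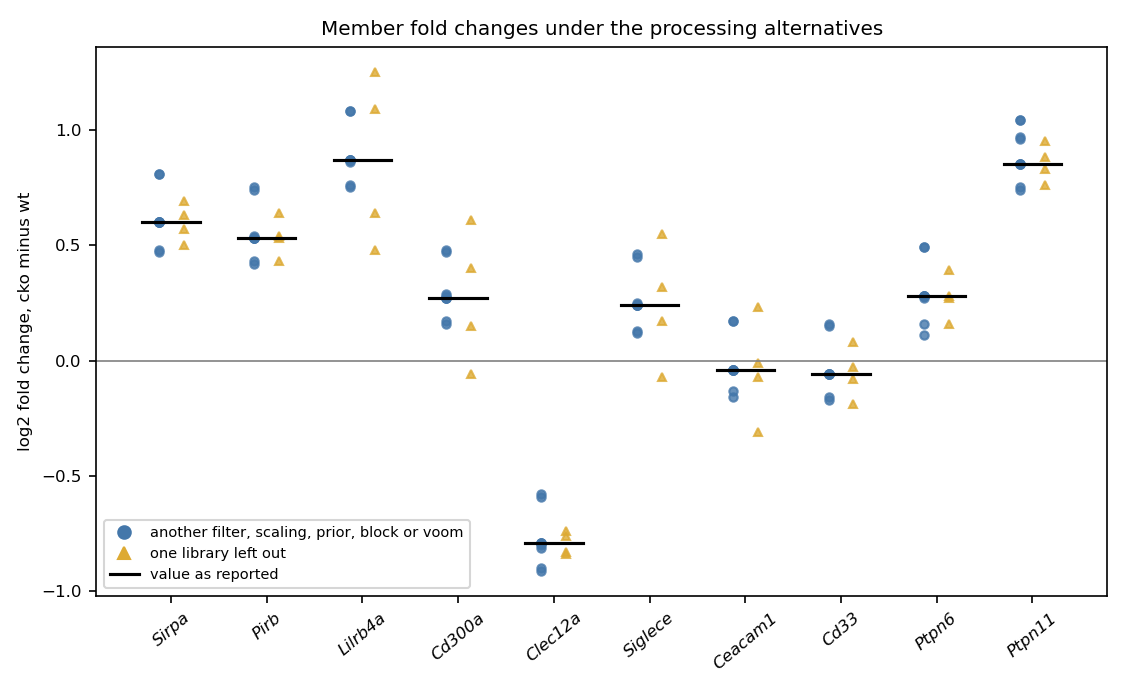
Log2 fold change of each member, cko minus wt (vertical axis), as reported (black bar), under 10 other processing choices (blue circles) and with 1 library left out (yellow triangles). The values of Sirpa, Pirb, Lilrb4a, Ptpn6 and Ptpn11 stay above 0 and those of Clec12a below 0, while those of Cd300a, Siglece, Ceacam1 and Cd33 cross 0.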

How the data were processed

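RNA of 4 mouse libraries (2 wt, 2 cko, grouped by their labels) was sequenced by the study. The authors deposited FPKM per gene, 1 library per file, for 24706 genes, and the methods name RPKM. The submitters' processing notes name Bowtie2 2.2.3, TopHat2 2.0.12, HTSeq 0.6.0 and mm9, without roles, whereas 92.61% of the positions given for genes equal those of GENCODE M21 (GRCm38). Values were not scaled further. Reads were recovered for 94.68% of genes, in which every FPKM is an integer times the FPKM of a single read (tolerance 0.05 reads), and used for depth, counting intervals (95%, exact binomial) and voom, rounded to whole reads. How reads shared between genes were counted is not given in the sources used here.

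Groups were compared with limma 3.58.1 (R 4.3.3; lmFit, eBayes with a trend) using log2(FPKM + 1) of 10779 genes (mean FPKM not under 1), and p-values were adjusted by Benjamini-Hochberg over all of them. The fit was tried on simulated data whose changes were larger than that of any member. This trial does not bear on changes of the members' size. Tables and figures were made with Python 3.11.15, scipy 1.17.1 and matplotlib 3.10.9. The members and gene lists were chosen with earlier results of these data known. Named genes are the members, their relatives, Pdcd1, Lyz2, at most the 4 tested genes of each list with the lowest unadjusted p, and the first 4 markers of each cell type. Itgam, Ptprc, Lilr4b, Gm14548 and the ratios were chosen after the values were seen. Itgam had more than one gene row and the higher was used. Cd244a and Mpig6b of the lists were matched as Cd244 and G6b, and 11 list genes were not analysed here. A gene that the rule names is not reported here. Alternatives covered the pseudocount, filter, scaling, variance prior, replicate block, voom and each library left out. Transcripts of the members were split into 50-base words and looked up in all other genes of GENCODE M21.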

Additional observations from a re-analysis of the deposited data

How the results depend on the processing

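Of 140 member values under 14 alternatives, 132 kept their direction, and in none did a member pass an adjusted p under 0.05. The 8 that turned were of members whose groups overlapped: Cd300a at -0.06 without cko replicate 2, Siglece at -0.07 without wt replicate 2, Ceacam1 at 0.17 with a common FPKM total, 0.17 with erythroid and hepatocyte markers removed and 0.23 without cko replicate 2, and Cd33 at 0.16, 0.15 and, without wt replicate 1, 0.08. With a library left out they ran from -0.06 to 0.61 (Cd300a), -0.07 to 0.55 (Siglece), -0.31 to 0.23 (Ceacam1) and -0.19 to 0.08 (Cd33). The common total and the removal of these markers moved the median of all genes from 0.09 to 0.27 and 0.26, and median-of-ratios scaling moved it to -0.01. The threshold of the methods called 0 genes, and 2 with voom. The second threshold, with an unadjusted p under 0.01, called 247, against 126 with a mean of at least 5 FPKM (fewer genes tested), 372 with a common FPKM total and 136 to 465 with a library left out. Those past an unadjusted p under 0.05 numbered 1768, against 1135 at 5 FPKM, 2552 with a common FPKM total and 851 to 1743 with a library left out. The cause of the other moves was not tested. Of 278 list medians, 40 moved by more than the replicate spread. The receptor sum differed by 0.27 on the log2 scale, and, in alternatives added after seeing the data, by 0.15 with median-of-ratios scaling, 0.48 with either other scaling and 0.18 to 0.35 with a library left out.

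Same-numbered libraries did not deviate together (correlation -0.163 over 10779 genes). This compares a single difference in each group, so that it cannot tell whether same-numbered libraries share a batch. With the replicate block 1247 genes had an unadjusted p under 0.05, and the same 5 members did. Depth was no limit for the members, at 829 or more reads each. Age, sorting and control genotype were not resolved.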
